A study of Drosophila simulans and Drosophila melanogaster and Drosophila sechellia with 48 samples.

Results

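RNA of whole males of Drosophila teissieri was compared with RNA of whole males of its relatives Drosophila yakuba and Drosophila santomea. The arrays were taken by the species in their titles: 3 arrays of D. teissieri, 3 of D. yakuba and 3 of D. santomea, which is 9 of the 48 arrays of the series. Each array was made with RNA of 20 adult males, 3 days after they left the pupa, raised at 25 C on cornmeal medium with yeast under continuous light, with no other treatment and no transgene in any group. The study, which asked whether neighbouring genes change expression together between species, measured 7 species of the D. melanogaster subgroup on Affymetrix Drosophila Genome 1.0 arrays, in 3 biological replicates per group. Each of these 3 species was represented by 1 line, so a difference between species cannot be told apart from a difference between lines. The probes were designed on D. melanogaster, so a difference in transcript amount cannot be told apart from a difference in how well the probes match the species. In whole males, likewise, fewer cells of a type and less RNA per cell cannot be told apart.

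D. teissieri lives in African forest, D. yakuba is a widespread African savannah fly, and D. santomea is an island species that lost most of the dark abdominal pigment of its relatives. Together they form the yakuba complex, within which D. yakuba and D. santomea are each other's closest relatives and D. teissieri is the outside branch. Whole adult males carry large amounts of RNA from flight muscle, gut, fat body, testis and accessory gland. Genes of reproduction, immunity, detoxification and the chemical senses are known to change quickly between Drosophila species.

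The arrays were not of equal quality. All values below are quantile-normalized log2 signals unless stated otherwise, and a log2 difference of 1 is a 2-fold difference. In the deposited signals, the 9 hybridization control probe sets, which read a spike added to every array, averaged a log2 of 13.91, 13.92 and 14.84 on D. teissieri arrays 1 to 3, against 12.21, 17.18 and 12.90 on the D. yakuba arrays and 13.32, 15.75 and 14.56 on the D. santomea arrays. D. yakuba 2 and D. santomea 2 were thus brightest for the spike, and the 5′ probe set of the control transcript eIF-4a was dimmest there, at a log2 of 10.91 and 7.23. The closest replicate of the same species correlated with these arrays at r = 0.66 and 0.70 across features, and with D. teissieri 3 at 0.79, while the other 6 arrays reached 0.84 to 0.88. The median SD among replicates was 0.62 in D. teissieri, 0.84 in D. yakuba and 0.78 in D. santomea, against 0.33 to 0.64 in the 13 other groups of the series. Results are therefore given with and without D. yakuba 2 and D. santomea 2.

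**Figure D1:**
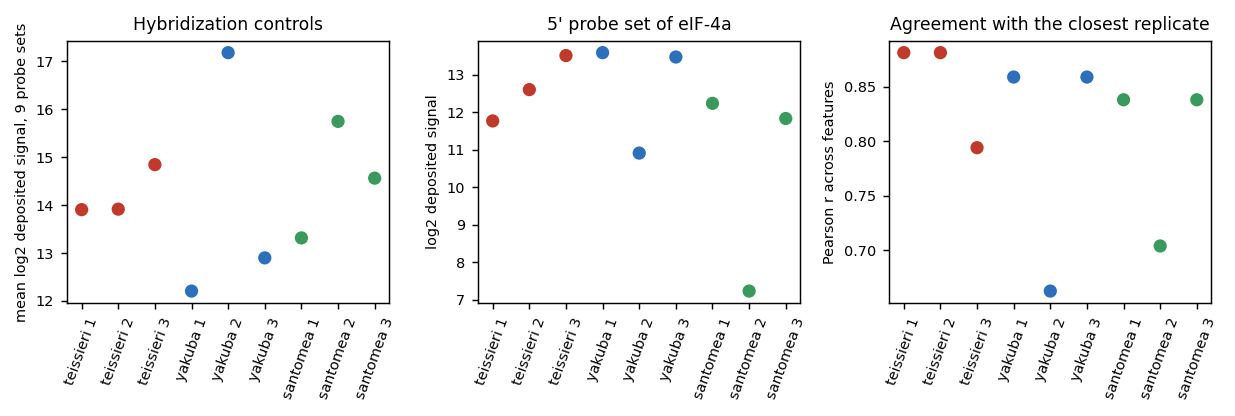
The 9 arrays, coloured by species, with the mean log2 deposited signal of 9 hybridization control probe sets (left), the log2 deposited signal of the 5′ probe set of eIF-4a (middle) and Pearson's r with the closest replicate of the same species (right). D. yakuba 2 and D. santomea 2 had the highest control signals of their species, 17.18 and 15.75, and the lowest correlations, 0.66 and 0.70.

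Markers of testis, muscle and eye were bright in all 3 species, while a marker of the accessory gland was dim. Mst87F, a protein of the sperm tail, read 13.67, 13.23 and 13.60 in D. teissieri, against 13.74, 14.09 and 14.07 in D. yakuba and 13.88, 14.66 and 13.40 in D. santomea. Muscle (Mlc2, a myosin light chain) and eye (Arr1, the visual arrestin) markers were bright everywhere, with no array below 13.47. Acp36DE, a seminal fluid protein of the accessory gland, read only 3.53, 2.90 and 4.81 in D. teissieri, against 3.37, 4.41 and 3.49 in D. yakuba and 5.07, 6.90 and 4.74 in D. santomea, while it averaged 11.10 in D. melanogaster. Of 18 yolk and eggshell genes, which mark females, none passed the limma test between D. teissieri and the other 2 species. An unadjusted p under 0.05 was reached by 1 of them. For yolk genes such as Yp1 the test was weak. D. sechellia 1, which enters the error, read 15.98 for Yp1, beside 8.61 and 5.71 on D. sechellia 2 and 3. The SE of the Yp1 difference was 1.37, against a median SE of 0.52 over all features. The lack of calls therefore does not decide whether female RNA differed. The median of the 18 genes by array was 7.44 to 7.95 in D. teissieri, against 7.85 to 7.93 in D. yakuba and 7.27 to 8.62 in D. santomea. The median of all features over these arrays was 7.66, so as a list the female markers were neither dark nor bright. The brightest members, the eggshell genes Cp18 and Vm34Ca, averaged 10.95 and 9.63 over the 9 arrays, above that median. The part of the female markers in the results was not tested.

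In the comparison of D. teissieri with the equal mean of D. yakuba and D. santomea, 439 of 12367 features (3.55%) were higher and 375 (3.03%) were lower at an adjusted p under 0.05 (limma over all 48 arrays, Benjamini-Hochberg over all features). The 814 called features are 6.58% of those tested, and 737 of them (5.96% of all) differed at least 2-fold. The median difference of all features was 0.02. Against D. yakuba alone 437 features (3.53%) were higher and 326 (2.64%) were lower, and against D. santomea alone 487 (3.94%) were higher and 405 (3.27%) were lower. The 2 single comparisons share the D. teissieri arrays. In the same fit D. santomea differed from D. yakuba in 625 features (5.05%).

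This fit takes its error from all 16 groups, and most of those had less spread than the 3 species compared here. With arrays weighted by the general spread of their species, called the spread by species below, 94 features (0.760%) were higher and 87 (0.703%) lower. A species has the same weight for all features there, so the spread of a single feature within a species is not estimated. In a fit of the 9 arrays alone no feature was called by limma, although 970 had an unadjusted p under 0.05 and the smallest adjusted p was 0.10. Without D. yakuba 2 and D. santomea 2, 484 features (3.91%) were higher and 504 (4.08%) lower, and 603 of the 814 calls were shared with this setting. The number of higher features fell to 288 without D. teissieri 1 and to 271 without D. teissieri 2. A set of 180 features (1.46%), 93 higher and 87 lower, was called in each of 3 separate fits. These were the 48-array fit, the fit with the spread by species and the fit without the 2 arrays. Some members of the set were not called when both changes were made together. Among them were Tektin-A, Adgf-E and Cyp6a18 (limma adjusted p = 0.0717, 0.0984 and 0.141). Genes of that set are called well supported below, a label chosen after the values were seen. Of the genes named by rule 34 are in it, and 0 of the 34 lost the call in the 48-array fit when any of the 9 arrays was left out. The set was chosen on fits of these same arrays, so this is not independent support. Of the other 45 genes named by rule and called, 41 lost it when at least 1 array was left out.

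Differences of dim genes depended on how low signals were treated. When signals below 32 were set to 32, a log2 of 5, the difference of 14 of the 79 genes named by rule and called moved by over 1.5-fold, and 5 of them lost the call. Values with this floor are given beside those genes.

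The D. teissieri arrays lay all above the other 6 in 361 features (2.92%) and all below them in 288 (2.33%), and 379 of these features (3.06% of all) were among the 814 called. Called features were somewhat brighter than the rest, with a median signal over the 9 arrays of 8.34 for those higher and 8.21 for those lower, against 7.66 for all features. D. teissieri was higher than each of the 2 species in 127 features (1.03%) and lower than each in 144 (1.16%), and it lay between them, different from both, in 4 (0.0323%).

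**Figure D2:**
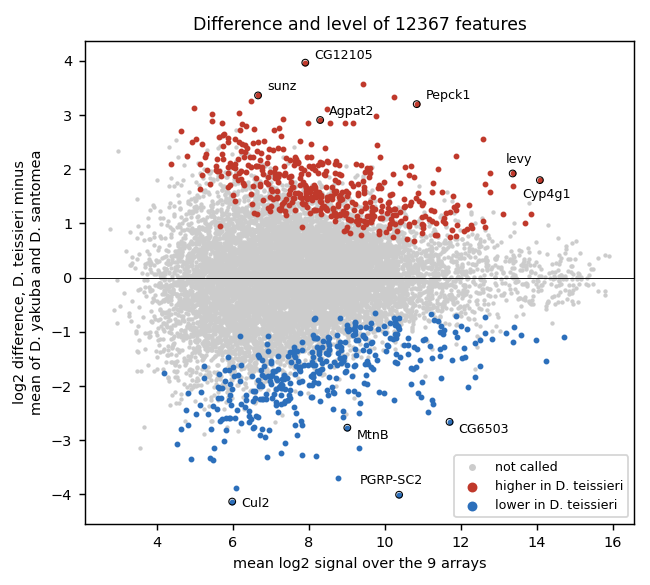
Each point is 1 of 12367 features, with its mean log2 signal over the 9 arrays on the horizontal axis and its log2 difference, D. teissieri minus the mean of D. yakuba and D. santomea, on the vertical axis. Red points (439) were called higher and blue points (375) lower in D. teissieri in the 48-array fit, at levels across the whole range, and named genes are ringed.

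levy, Agpat2 and mge had the smallest p of the named genes higher in D. teissieri. levy, which encodes subunit 6A of cytochrome c oxidase, read 14.88, 14.63 and 14.41 in D. teissieri, against 12.26, 13.00 and 12.51 in D. yakuba and 12.72, 13.30 and 12.52 in D. santomea. Every D. teissieri array was above every other array by more than a 2-fold step, and the difference was 1.92 ± 0.20 (SE; limma adjusted p = 3.44e-08), or 3.79-fold. mge, the Tom22 receptor through which proteins enter mitochondria, read 12.48, 12.09 and 11.64 in D. teissieri, against 9.40, 9.91 and 9.97 in D. yakuba and 9.98, 10.34 and 10.44 in D. santomea. The arrays again did not overlap, and the difference was 2.07 ± 0.21 (adjusted p = 3.44e-08). D. sechellia and D. mauritiana, which lie outside the yakuba complex and were measured in the same later collection, averaged 14.60 and 14.87 for levy and 11.37 and 11.47 for mge, on the side of D. teissieri.

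The rest of the respiratory chain did not follow levy. Of 72 measured subunits and their relatives 4 were higher and 2 lower, a called share of 8.33% beside 6.58% of all features, and their median difference was 0.08. The other higher members were COX7AL (1.66 ± 0.46), Cyt-c1, the cytochrome of complex III (1.17 ± 0.28), and ND-51L2 (0.83 ± 0.25), and the lower ones were COX4L (-1.63 ± 0.40) and the complex I subunit ND-B14.5B (-1.13 ± 0.26). With the spread by species levy alone of the list was called. ND-51L2 was also lost without D. yakuba 2 and D. santomea 2 (limma adjusted p = 0.0987). With an array left out, COX7AL lost its call in 3 of the 9 fits, and Cyt-c1 and COX4L each in 2. Fdx2, a ferredoxin of mitochondrial iron-sulfur chemistry, was lower in D. teissieri, at 9.77, 10.21 and 9.27, against 12.19, 12.40 and 12.61 in D. yakuba and 12.15, 10.52 and 12.13 in D. santomea. Its arrays did not overlap, D. santomea 2 coming nearest, and it was 4.76-fold lower (log2 difference -2.25 ± 0.28, adjusted p = 1.62e-06).

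Pepck1 and Agpat2 encode metabolic enzymes, and both were higher in D. teissieri. Pepck1, the phosphoenolpyruvate carboxykinase of gluconeogenesis, read 13.43, 12.69 and 12.79 in D. teissieri, against 10.54, 10.14 and 10.20 in D. yakuba and 9.99, 8.39 and 9.37 in D. santomea. D. teissieri was 9.20-fold higher (3.20 ± 0.43, adjusted p = 6.72e-06), with more than a log2 step of 2 between its lowest array and the highest of the others. Agpat2, an acyltransferase that makes phosphatidic acid, read 10.13, 10.12 and 10.46 in D. teissieri, against 6.34, 7.07 and 7.23 in D. yakuba and 8.23, 6.82 and 8.28 in D. santomea. It was 7.51-fold higher with no overlap (2.91 ± 0.30, adjusted p = 3.44e-08). For both genes D. sechellia and D. mauritiana were nearer D. teissieri, averaging 13.08 and 12.09 for Pepck1 and 9.72 and 8.87 for Agpat2. levy, mge, Fdx2, Pepck1 and Agpat2 were all well supported.

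Cyp4g1 encodes the cytochrome P450 of oenocytes that makes the last step of cuticular hydrocarbon synthesis, the waxes that waterproof the fly and serve as contact pheromones. It read 15.31, 15.10 and 15.42 in D. teissieri, against 12.99, 12.31 and 12.67 in D. yakuba and 14.70, 13.85 and 14.32 in D. santomea. The 3 species did not overlap at all. The difference from the mean of the other species was 1.80 ± 0.22 (3.48-fold, adjusted p = 1.04e-06), and it was larger against D. yakuba (2.62 ± 0.25) than against D. santomea (0.98 ± 0.25, adjusted p = 0.0113), since D. santomea itself exceeded D. yakuba by 1.63 ± 0.25 (adjusted p = 0.000107). Cyp4g1 was the only called gene of 17 measured hydrocarbon genes (5.88% beside 6.58% of all features), whose median difference was 0.39. The fatty acid synthase FASN1 (0.39 ± 0.26) and the desaturase Desat1 (0.65 ± 0.39) did not pass.

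**Figure D3:**
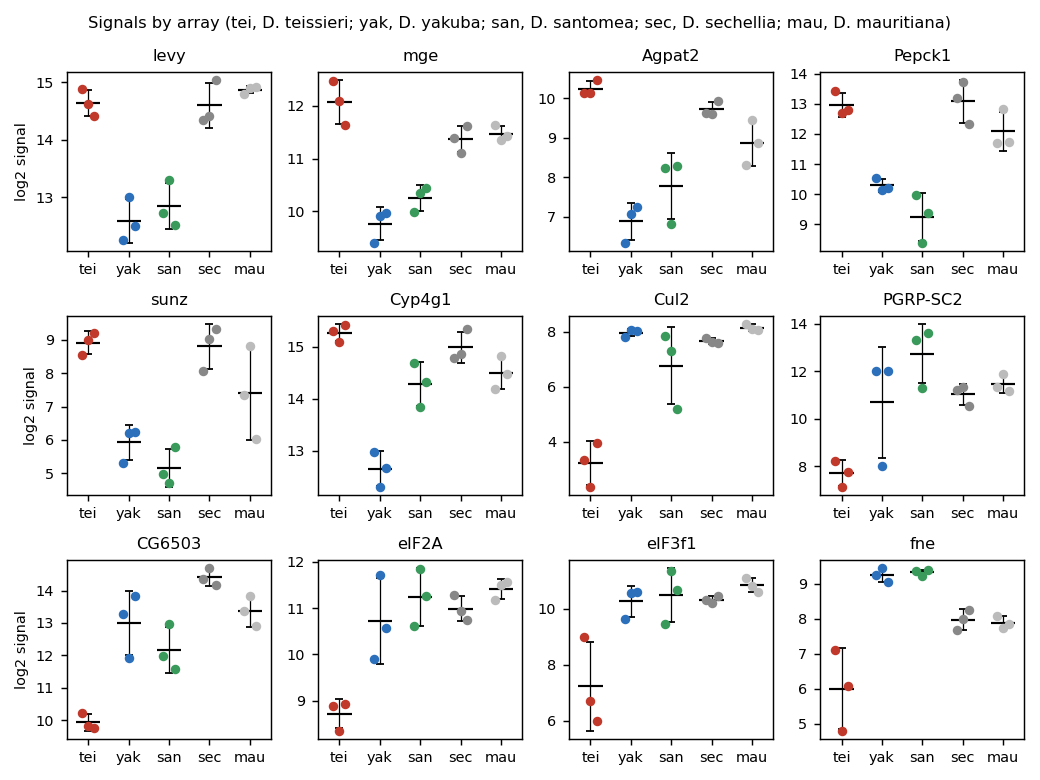
Normalized log2 signals of 12 genes by array, with points for the 3 arrays of each species, a bar at their mean and whiskers of 1 SD; D. teissieri (red) stands left of D. yakuba (blue), D. santomea (green), D. sechellia and D. mauritiana (greys). The D. teissieri points lie above all D. yakuba and D. santomea points for levy, mge, Agpat2, Pepck1, sunz and Cyp4g1, and below them all for Cul2, CG6503, eIF2A, eIF3f1 and fne, while PGRP-SC2 overlaps through D. yakuba 2.

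Genes of late spermatogenesis were higher more often than lower. Of 36 measured genes of sperm chromatin and the sperm tail 6 were called, all higher (16.7% beside 3.55% of all features higher), and the median difference of the list was 0.38. sunz, transcribed after meiosis in elongating spermatids, read 8.53, 9.0 and 9.19 in D. teissieri, against 5.32, 6.21 and 6.24 in D. yakuba and 4.98, 4.72 and 5.80 in D. santomea. D. teissieri was above all other arrays and 10.3-fold higher (3.36 ± 0.39, adjusted p = 4.79e-07). Tektin-A, a filament protein of the axoneme, was higher by 2.05 ± 0.44 (adjusted p = 0.00258), with D. santomea 3, at 7.46, above the lowest D. teissieri array, at 7.32. The sperm tail proteins Mst84Dc (1.68 ± 0.37) and Mst98Cb (1.31 ± 0.28), the sperm leucyl aminopeptidase S-Lap7 (1.34 ± 0.29) and soti, a regulator of spermatid caspases (1.19 ± 0.31), were the other 4. Without D. yakuba 2 and D. santomea 2 the list had 8 higher members, and with the spread by species 2, sunz and Tektin-A.

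Earlier stages and the accessory gland gave 1 call each. Among 16 regulators of spermatocytes and meiosis bol, the translational regulator of meiotic entry, was the only called gene, 6.25% beside 6.58% of all features. It was higher in D. teissieri by 1.34 ± 0.36 (adjusted p = 0.0164), and it was not called without D. yakuba 2 and D. santomea 2. Acp32CD was the only called gene of 25 accessory gland proteins (4.0% beside 6.58% of all features). It read 7.26, 7.10 and 6.97 in D. teissieri, against 9.49, 10.18 and 7.66 in D. yakuba and 8.72, 9.66 and 9.34 in D. santomea. All D. teissieri arrays were lowest, the difference was -2.07 ± 0.32 (4.19-fold lower, adjusted p = 5.56e-05), and D. sechellia and D. mauritiana averaged 10.06 and 10.34. The 25 proteins had a median difference of -0.34, and 8 of them had a positive difference. Sex peptide (SP), which changes female behaviour after mating, did not pass (-0.60 ± 0.39). None of 4 ejaculatory duct and bulb proteins was called by limma, and none had an unadjusted p under 0.05.

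PGRP-SC2 showed one of the largest decreases. It encodes an amidase that cuts bacterial peptidoglycan in the gut and dampens immune signalling. It read 8.21, 7.14 and 7.76 in D. teissieri, against 12.02, 8.0 and 12.02 in D. yakuba and 13.30, 11.30 and 13.61 in D. santomea. Only D. yakuba 2 fell within the D. teissieri range. The difference was -4.01 ± 0.51 (16.1-fold lower, adjusted p = 2.02e-06), and it was -5.03 ± 0.59 against D. santomea and -2.98 ± 0.59 against D. yakuba. D. sechellia and D. mauritiana averaged 11.03 and 11.45, on the side of D. yakuba and D. santomea.

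Of 26 measured genes of immune recognition and signalling 5 were called, all lower in D. teissieri (19.2% beside 3.03% of all features lower), while the median difference of the list was -0.09. Beside PGRP-SC2 these were spz, the ligand of the Toll receptor (-2.72 ± 0.69), Tep3, a thioester protein (-1.78 ± 0.48), the amidase PGRP-LB (-0.97 ± 0.26) and the Toll adaptor Myd88 (-0.94 ± 0.27). With the spread by species PGRP-SC2 alone was called, and without D. yakuba 2 and D. santomea 2 the list had 4 lower members. Those 4 did not include spz and PGRP-LB, which lost the call in that setting (limma adjusted p = 0.0646 and 0.0700). Tep3 read 7.79, 7.40 and 4.16 on D. teissieri arrays 1 to 3, and without D. teissieri 3 its difference was -0.64 and no longer called. With the floor of 32, spz was at -1.23 and no longer called. Of 13 antimicrobial and immune peptides Drsl5 alone was called (1.45 ± 0.38), 7.69% beside 6.58% of all features, and it was lost without the 2 arrays. None of 7 lysozymes was called by limma (1 at an unadjusted p under 0.05).

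Cul2, the scaffold of a ubiquitin ligase, had the lowest log2 difference of all called genes with arrays that did not overlap. It read 3.34, 2.38 and 3.97 in D. teissieri, against 7.81, 8.05 and 8.02 in D. yakuba and 7.82, 7.31 and 5.18 in D. santomea. The difference was -4.13 ± 0.36 (adjusted p = 1.04e-09). All 3 D. teissieri values lay under a log2 of 5, and with the floor of 32 the difference was -2.36, or 5.12-fold lower (adjusted p = 9.05e-06). D. sechellia and D. mauritiana averaged 7.66 and 8.14, so D. teissieri alone of the 5 later-collected species was dim for this gene. For fne, an RNA-binding protein of neurons, D. teissieri read 7.11, 4.80 and 6.07, against 9.25, 9.45 and 9.06 in D. yakuba and 9.36, 9.23 and 9.38 in D. santomea. It was 9.83-fold lower (-3.30 ± 0.47, adjusted p = 1.42e-05), and the outer species averaged 7.98 and 7.89, between the groups.

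Several lower genes act on messenger RNA. eIF3f1, a subunit of translation initiation factor eIF3, read 9.0, 6.70 and 5.98 in D. teissieri, against 9.62, 10.57 and 10.58 in D. yakuba and 9.45, 11.35 and 10.64 in D. santomea. eIF2A, another initiation factor, read 8.88, 8.36 and 8.93 in D. teissieri, against 9.89, 11.71 and 10.56 in D. yakuba and 10.61, 11.85 and 11.26 in D. santomea. Neither gene overlapped between the groups, and the differences were -3.14 ± 0.40 (adjusted p = 2.27e-06) and -2.26 ± 0.28 (adjusted p = 1.48e-06). DCP2, which removes the cap of messenger RNA, was 9.39-fold lower (-3.23 ± 0.49), although its D. teissieri arrays themselves spread widely, at 5.48, 7.38 and 2.48, and with the floor of 32 the difference was -2.39. With each array left out in turn the DCP2 difference ranged from -4.37 to -1.91 and stayed called. These genes stand together by their known roles and were noticed after their values were seen. Other genes that act on messenger RNA were called higher, among them Rai1 (2.89 ± 0.69), bol (1.34 ± 0.36) and Imp. The share of such genes called in either direction was not counted.

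The remaining named decreases were the Rab activator Crag (-2.95 ± 0.52), the membrane protein stmA (-3.05 ± 0.52), known from work on synapses and photoreceptors, and the genes CG14556 (-3.88 ± 0.59), CG11842 (-3.30 ± 0.61), CG10177 (-2.80 ± 0.74) and CG11666 (-2.79 ± 0.75). CG6503 was bright and read 10.21, 9.82 and 9.74 in D. teissieri, against 13.28, 11.91 and 13.83 in D. yakuba and 11.97, 12.95 and 11.57 in D. santomea. It did not overlap and was 6.32-fold lower (-2.66 ± 0.32, adjusted p = 7.73e-07), with D. sechellia at 14.41 and D. mauritiana at 13.36. CG10177 and CG11666 were called in the 48-array fit but were not called with the spread by species. With the floor of 32 the differences were -2.38 for CG14556, -0.89 for CG10177 and -1.48 for CG11666, and the last 2 lost the call.

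Among called genes with arrays that did not overlap, the largest increase was that of CG12105. It read 10.00, 10.55 and 11.11 in D. teissieri, against 8.85, 5.09 and 8.29 in D. yakuba and 7.05, 5.28 and 4.94 in D. santomea. It was 15.6-fold higher with no overlap (3.97 ± 0.55, adjusted p = 8.65e-06), and D. yakuba 2 stood well below the other D. yakuba arrays. The deubiquitinating enzyme Uch read 9.83, 9.80 and 10.11 in D. teissieri, against 7.34, 7.38 and 7.02 in D. yakuba and 8.74, 7.64 and 8.58 in D. santomea. It was 4.39-fold higher (2.13 ± 0.24, adjusted p = 2.56e-07). The adenosine deaminase Adgf-E (2.86 ± 0.55) and the genes CG15141 (3.03 ± 0.46), CG3213 (2.98 ± 0.50), CG34126 (2.92 ± 0.47) and CG3124 (2.86 ± 0.43) were also well supported. The fibroblast growth factor ligand ths (3.25 ± 0.75), bard (3.05 ± 0.75) and Rai1, a nuclear enzyme that removes faulty caps (2.89 ± 0.69), were called in the 48-array fit and not with the spread by species. With the floor of 32, CG15141 was higher by 2.22, bard by 2.37 and Rai1 by 2.30, all still called.

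Cytochrome P450 genes changed in both directions. Of 83 measured 6 were higher and 5 lower (13.3% called beside 6.58% of all features), with a median difference of 0.10. The family has many similar copies, and cross-hybridization between them was not tested. Cyp18a1, which inactivates the moulting hormone ecdysone, was lower, with a difference of -2.03 ± 0.39 (adjusted p = 0.000831), at 4.25, 7.54 and 5.98 in D. teissieri, against 7.76, 7.61 and 8.03 in D. yakuba and 8.22, 7.87 and 8.26 in D. santomea. All D. teissieri arrays were lowest, D. teissieri 2 only just. Cyp6a20, known for its part in male aggression in D. melanogaster, was lower, with a difference of -2.25 ± 0.41 (-1.65 with the floor of 32), and Cyp313a1 with one of -1.95 ± 0.40. Cyp4ad1 was higher by 2.06 ± 0.57 and Cyp6a18 by 1.68 ± 0.40. With the spread by species 2 P450 genes were higher (Cyp4g1 and Cyp6a18) and 3 lower (Cyp6a20, Cyp18a1 and Cyp313a1), and without the 2 arrays 8 were higher and 8 lower. Of 67 glutathione and UDP-glycosyl transferases GstD9 (1.46 ± 0.42) was higher and GstE1 (-1.58 ± 0.41) lower, 2.99% beside 6.58% of all features. GstD9 was called neither without the 2 arrays (0.65, adjusted p = 0.129) nor with the spread by species, and GstE1 was not called with the spread by species (adjusted p = 0.211).

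Metallothioneins are small proteins that bind copper and other metals. MtnB read 7.58, 5.43 and 8.49 in D. teissieri, against 9.41, 8.92 and 9.64 in D. yakuba and 9.82, 11.97 and 9.85 in D. santomea. D. teissieri was lowest on every array and 6.82-fold lower (-2.77 ± 0.54, adjusted p = 0.000948). MtnA was lower, with a difference of -1.10 ± 0.32 (adjusted p = 0.0273). The difference lay on the side of D. santomea, since D. teissieri differed from D. yakuba by only -0.36 ± 0.36 and from D. santomea by -1.83 ± 0.36 (adjusted p = 0.0013). The call of MtnA was lost with the spread by species (adjusted p = 0.331) and in 3 of the 9 fits with an array left out.

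MtnC had the widest contrast, and D. teissieri stood in the middle of it. It read 10.85, 9.68 and 12.51 in D. teissieri, against 3.06, 3.67 and 2.53 in D. yakuba and 14.48, 15.45 and 14.65 in D. santomea. No species overlapped another. D. teissieri was higher than D. yakuba by 7.92 ± 0.76 (adjusted p = 8.77e-09). Since all D. yakuba values lay under a log2 of 5, the size of that difference is uncertain, and with the floor of 32 it was 6.01, or 64.4-fold (adjusted p = 9.96e-07). D. teissieri was 14.4-fold lower than D. santomea (-3.85 ± 0.76, adjusted p = 0.00118). D. sechellia averaged 13.43 and D. mauritiana 7.22. The difference from the mean of both species, 2.04 ± 0.66, did not pass (adjusted p = 0.0530). The metallothionein genes resemble each other, and what part cross-hybridization or probe mismatch had in these signals was not tested. Of the 11 measured heat shock and stress genes only MtnA and MtnB were called (18.2% beside 6.58% of all features), and 9 of the 11 had a positive difference.

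**Figure D4:**
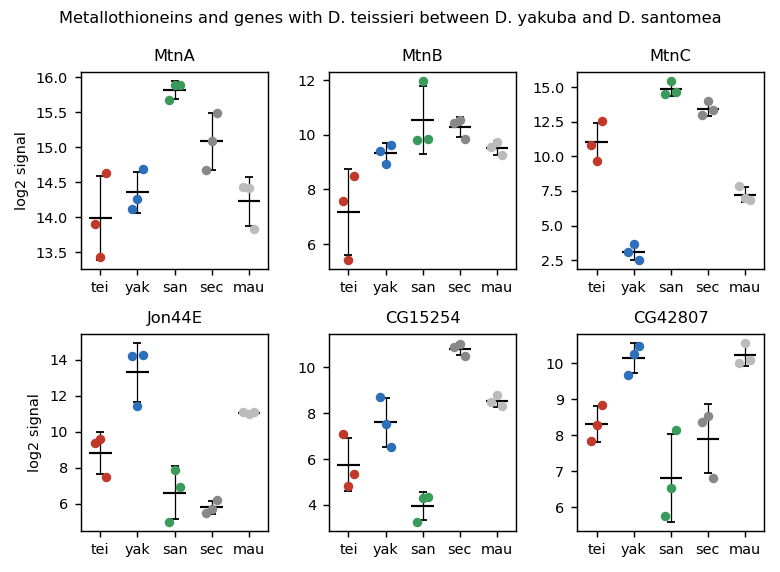
Normalized log2 signals by array of 3 metallothioneins and of 3 other genes in which D. teissieri lay between the other species, drawn with points for arrays, a bar at the mean and whiskers of 1 SD, D. teissieri at the left. For MtnC the D. teissieri arrays lie from 9.68 to 12.51, above D. yakuba and below D. santomea, and for Jon44E the order of D. yakuba and D. santomea is turned.

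Jon44E, CG15254 and CG42807 were the other genes with D. teissieri between both species. Jon44E, of the Jonah family of gut proteases, read 9.37, 9.59 and 7.46 in D. teissieri, against 14.24, 11.42 and 14.28 in D. yakuba and 4.98, 7.90 and 6.93 in D. santomea. D. teissieri was 22.7-fold lower than D. yakuba (-4.50 ± 0.62, adjusted p = 1.23e-05) and 4.61-fold higher than D. santomea (2.20 ± 0.62, adjusted p = 0.0233), where D. teissieri 3 overlapped D. santomea 2. CG15254 and CG42807 had the same order, with differences of -1.84 ± 0.50 and -1.83 ± 0.44 from D. yakuba and of 1.79 ± 0.50 and 1.51 ± 0.44 from D. santomea. With the floor of 32 the difference of CG15254 from D. santomea was 0.81 and no longer called. For MtnC both differences, and for Jon44E that from D. yakuba, stayed called when any 1 array was left out. The difference of Jon44E from D. santomea lost its call in 3 of the 9 cases (1.40 to 2.88), those of CG15254 from D. yakuba in 3 and from D. santomea in 2, and those of CG42807 in 1 and 4.

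Of the 48 measured proteases and sugar-cleaving enzymes of the gut 2 were higher than the mean of both species, lambdaTry (1.28 ± 0.40) and the maltase Mal-A4 (1.15 ± 0.36), and 3 were lower, the trypsins betaTry (-2.48 ± 0.73) and Try29F (-2.29 ± 0.63) and the Jonah protease Jon25Biii (-1.86 ± 0.43), a called share of 10.4% beside 6.58% of all features. The list had a median difference of -0.32, beside 0.02 for all features, and 17 of 48 differences were positive. Without D. yakuba 2 and D. santomea 2, 9 members were lower and none higher (limma; 16 members had an unadjusted p under 0.05 with all arrays), and with the spread by species none was called. The trypsins and Jonah proteases are families of similar genes, for which cross-hybridization was not tested.

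**Figure D5:**
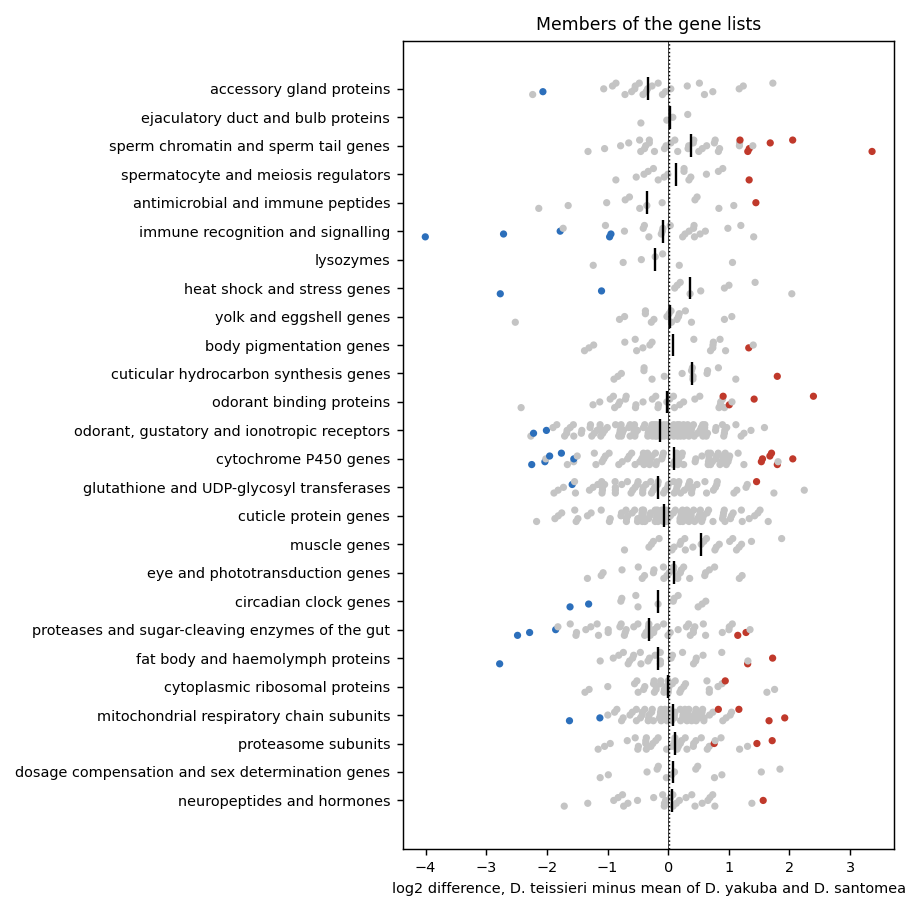
Each point is a measured member of a gene list, at its log2 difference, D. teissieri minus the mean of D. yakuba and D. santomea; red members were called higher, blue ones lower and grey ones neither, the black bar is the median of the list and the dotted line the median of all features, 0.02. The red points of the sperm list and the blue points of the immune recognition list all lie on a single side, while the P450 list has both.

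Of 35 odorant binding proteins 4 were higher (11.4% beside 3.55% of all features higher): Obp56a (2.40 ± 0.60), Obp47b (1.42 ± 0.45), Obp99a (1.01 ± 0.27) and Obp44a (0.91 ± 0.24). Obp44a was the brightest, at 12.53, 12.52 and 13.24 in D. teissieri, against 12.13, 10.86 and 11.85 in D. yakuba and 11.67, 12.34 and 12.31 in D. santomea. The arrays did not overlap, but the gap to D. santomea was small, and none of the 4 was called with the spread by species. Among 129 receptors the membrane protein Snmp2 (-2.22 ± 0.65) and the taste receptor Gr47a (-2.01 ± 0.62) were called lower, 1.55% of the list beside 6.58% of all features. The list was dim, with medians by array of 6.01 to 7.28, against a median of 7.66 for all features. What part this had in the low share was not tested. Snmp2 rested on D. teissieri 3, which read 2.41 while the other D. teissieri arrays both read 7.82, and without it the difference was -0.42. With the floor of 32 it was -1.36 and no longer called. Neither gene was called without the 2 arrays (limma adjusted p = 0.0646 for Snmp2 and 0.136 for Gr47a) or with the spread by species. Gr47a also lost its call in 5 of the 9 fits with an array left out.

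Pigmentation, the trait for which D. santomea is known, gave 1 call among 18 measured genes (5.56% beside 6.58% of all features). bab2, a transcription factor that represses abdominal pigment in D. melanogaster, read 9.73, 9.63 and 9.60 in D. teissieri, against 8.33, 7.15 and 8.98 in D. yakuba and 8.40, 7.96 and 9.15 in D. santomea. The D. teissieri arrays were highest, and the difference was 1.33 ± 0.40 (adjusted p = 0.0375). It was called neither without the 2 arrays nor with the spread by species.

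Housekeeping complexes stayed near the median of all features. Of 39 proteasome subunits and relatives 3 were higher (7.69% beside 3.55% of all features higher), and Rpn1, a scaffold of the regulatory particle, was well supported. It read 11.67, 11.75 and 11.97 in D. teissieri, against 10.05, 11.13 and 10.29 in D. yakuba and 10.13, 10.34 and 10.06 in D. santomea, a difference of 1.46 ± 0.27 without overlap (adjusted p = 0.000621). The other members called were Rpn12R (1.72 ± 0.50) and Rpn13 (0.76 ± 0.22), and the list's median was 0.11. Of 37 cytoplasmic ribosomal proteins RpLP0 alone was called (0.94 ± 0.29), 2.70% beside 6.58% of all features, and the list's median was 0.00. The call of RpLP0 was lost with the spread by species (adjusted p = 0.188) and in 6 of the 9 fits with an array left out.

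In fat body and haemolymph, 2 of 28 measured genes were higher and 1 lower (10.7% called beside 6.58% of all features). regucalcin, a calcium-binding protein, read 14.17, 14.09 and 13.08 in D. teissieri, against 11.92, 13.40 and 12.74 in D. yakuba and 12.06, 10.88 and 11.35 in D. santomea. D. yakuba 2 was above D. teissieri 3, and the difference was 1.72 ± 0.27 (3.30-fold, adjusted p = 5.78e-05), larger against D. santomea (2.35 ± 0.31) than against D. yakuba (1.09 ± 0.31). Hml, the clotting protein of blood cells, was lower, with a difference of -2.78 ± 0.65 (adjusted p = 0.0062), at 5.90, 4.40 and 3.76 in D. teissieri, against 7.55, 9.12 and 7.12 in D. yakuba and 6.93, 6.26 and 7.80 in D. santomea. It did not overlap, but it was not called with the spread by species, and with the floor of 32 the difference was -2.16. Nplp2 was higher by 1.31 ± 0.40. Among 28 neuropeptides and hormones only Nplp1, a neuropeptide precursor, was called (1.57 ± 0.43), 3.57% beside 6.58% of all features. Among 13 clock genes the transcription factors Clk (-1.62 ± 0.51) and Pdp1 (-1.31 ± 0.33) were lower, 15.4% beside 6.58% of all features. Clk rested on D. teissieri 2, which read 2.73 beside 5.86 and 6.86 on the other D. teissieri arrays. Without that array its difference was -0.41 and not called, and with the floor of 32 it was -0.96 and not called. None of Nplp1, Nplp2, Clk and Pdp1 was called with the spread by species.

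No member of 4 further lists was called by limma: 96 cuticle proteins (17 at an unadjusted p under 0.05), 25 muscle genes (9), 27 eye and phototransduction genes (8) and 14 genes of dosage compensation and sex determination (2). Without the 2 arrays 1 cuticle protein, 1 muscle gene and 1 eye gene were called, all lower. The muscle list had the highest median of all lists, 0.55, and 20 of its 25 differences were positive. Act88F, the actin of flight muscle, read 15.63, 15.59 and 12.87 in D. teissieri, against 13.18, 12.61 and 10.52 in D. yakuba and 14.59, 14.49 and 14.56 in D. santomea, so D. teissieri 3 stood far below the other D. teissieri arrays. The difference, 1.37 ± 0.58, did not pass. The brightest members of the other lists had differences of -0.08 ± 0.31 (Vajk2) and -0.55 ± 0.27 (Ccp84Ae) for the cuticle, and of 0.09 ± 0.24 (Arr1) and -0.23 ± 0.32 (retinin) for the eye. In the list of dosage compensation and sex determination they were Sxl, the switch gene of sex determination, at 1.84 ± 0.72 (unadjusted p = 0.0149, adjusted p = 0.122), and ix at -0.16 ± 0.28. Sxl read 10.86, 11.05 and 10.05 in D. teissieri, against 10.02, 7.42 and 10.60 in D. yakuba and 9.52, 4.56 and 10.76 in D. santomea, so D. yakuba 2 and D. santomea 2 were far below the rest.

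D. sechellia and D. mauritiana served as a view from outside the complex. D. sechellia 1 had a median of 10.23 for the yolk and eggshell genes, which mark females. D. sechellia 2 and 3 had 6.84 and 6.83. D. sechellia 1 was kept in all means of that species, and its effect on them was not tested. Of the 439 features higher in D. teissieri, the mean of these 2 species was nearer D. teissieri in 269 (61.3%), and of the 375 lower ones in 103 (27.5%). Among features not called, the shares were 45.0% of those with a positive and 51.9% of those with a negative difference. These shares are a description: D. sechellia and D. mauritiana are closer to D. melanogaster than the yakuba complex is. A difference in the match to the probes therefore cannot be told apart from a difference in level. The study reported that expression estimates tended to be higher when mismatched probes were kept than when they were masked.

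Neighbouring genes, the subject of the study, could be examined on the part of chromosome arm 2L whose D. melanogaster gene order was used here. It held 1670 measured genes, of which 118 (7.07%) were called. Consecutive genes were called in the same direction in 11 pairs, which form 10 runs, 7 higher and 3 lower in D. teissieri. The runs with the largest differences were CG13243 with Tektin-A (2.20 ± 0.58 and 2.05 ± 0.44), the 3 genes strat, CG7781 and CG14275 (2.37 ± 0.64, 1.95 ± 0.58 and 2.02 ± 0.33), Snx17 with CG5731 (1.91 ± 0.49 and 2.58 ± 0.80, the second 1.83 with the floor of 32), and, in the lower direction, Reps with l(2)gd1 (-1.85 ± 0.56 and -1.34 ± 0.28). CG14275 read 8.97, 9.80 and 9.53 in D. teissieri, against 6.96, 7.66 and 8.82 in D. yakuba and 7.01, 7.32 and 6.73 in D. santomea. It alone of the run was well supported and did not overlap. l(2)gd1, a regulator of endosomal sorting, read 7.80, 7.27 and 7.85 in D. teissieri, against 8.79, 9.20 and 8.77 in D. yakuba and 8.74, 9.72 and 8.68 in D. santomea. The next run, chosen after its values were seen, was that of nrv1 (-1.31 ± 0.38) and nrv2 (-2.03 ± 0.64), duplicate genes for the beta subunit of the sodium pump. nrv2 was dim, at 6.37, 2.67 and 3.81 in D. teissieri. It was not called without D. yakuba 2 and D. santomea 2 (limma adjusted p = 0.210). Cross-hybridization between the duplicates was not tested. With the spread by species no pair was called, the pairs were 2 without D. teissieri 1 and 3 without D. teissieri 2, and the number that gene order alone would give was not tested.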

How the data were processed

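Males of 7 species were measured on 48 Affymetrix arrays, of which 9 are compared here. The other 5 species are a later collection than D. melanogaster and D. simulans, per the study's methods. The authors deposited MAS5 intensity values, 1 per probe set on a linear scale. Their methods also name Loess smoothing and the masking of probes that mismatch D. yakuba; the 14010 deposited probe sets include masked ones, and whether Loess was applied is not given in the sources used here. Depth has no meaning for arrays, whose number limits the precision.

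Of the probe sets 12444 carry 1 gene symbol in the platform annotation, 327 several and 1239 none. Without 44 controls, and with the brightest probe set kept for each of 1209 genes with several, 12367 features were tested, 10844 of them named. Signals below 1 (31 values) were set to 1, log2 values of the deposited signals were taken, and the 48 arrays were quantile normalized, since array medians spanned 7.56 to 8.25. Contrasts were fitted with limma 3.58.1 in R 4.3.3 over 16 groups (32 residual and 3.66 prior degrees of freedom), two-sided, with an adjusted p threshold of 0.05. On simulated data for this comparison with 12367 features, 10 of 100 features changed by a log2 of 1 were recovered. Of those changed by 2, 42 of 100 were recovered, and there was 1 false call. The simulation gave each feature the same spread in all groups, not the wider spread of D. teissieri, D. yakuba and D. santomea. It therefore cannot tell how many calls in the measured data are false.

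Members and gene lists (27, of which the 11 Y chromosome genes had no measured member) were chosen with earlier results of these data known. Named were the 12 called genes with the highest and the 12 with the lowest difference whose arrays did not overlap, the 6 with the smallest p in each direction, up to 4 called members of each list or else its 2 brightest, 4 genes between both species and 4 neighbouring runs; other genes named were chosen after their values were seen. Alternatives changed the normalization, the floor, the filter, the probe set choice, the error model and the arrays used. Replicate numbers did not pair arrays: deviations of same-numbered arrays correlated at -0.07 to 0.15.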

Additional observations from a re-analysis of the deposited data

Results flagged for a closer look

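For 21 of the 139 genes whose values were tabulated, D. santomea and D. yakuba differed from each other, so that the difference of D. teissieri from one was not the same as from the other (limma, contrast of D. santomea minus D. yakuba, adjusted over all features, of which 5.05% were called). The contrast was widest in the 4 genes with D. teissieri between the other species: MtnC at 11.77, Jon44E at -6.71, CG15254 at -3.62 and CG42807 at -3.33. For MtnC its size is uncertain, since all D. yakuba values lay under a log2 of 5.

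In CG3124, Uch, Cyp4g1, PGRP-SC2 and regucalcin D. teissieri differed from each of both species in the same direction but by unequal amounts. Uch (1.08), Cyp4g1 (1.63) and PGRP-SC2 (2.05) were higher in D. santomea than in D. yakuba, while CG3124 (-2.23) and regucalcin (-1.26) were lower. For PGRP-SC2 the D. yakuba mean includes D. yakuba 2, which read 8.0 beside 12.02 on both other arrays.

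In 10 genes D. teissieri was called against D. santomea and not against D. yakuba. Of these MtnA (1.47), Try29F (2.54), the P450 gene Cyp6a8 (1.89) and IscU (0.95) were higher in D. santomea than in D. yakuba, and Obp56a (-2.49), Nplp2 (-1.64), Rpn13 (-0.96), Cyp6a18 (-2.26), the P450 gene Cyp4d20 (-1.98) and Ppox (-1.29) were lower. In soti (1.34) and Act88F (2.44) D. teissieri was called against D. yakuba and not against D. santomea.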

How the results depend on the processing

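The 48-array fit takes its error from all 16 groups, most of which had less spread than these 3 species, and the counts depended on that choice. With the spread by species, 94 features were higher and 87 lower than the mean of D. yakuba and D. santomea, 40 and 27 than D. yakuba, 79 and 55 than D. santomea, 10 and 12 than both, with 0 neighbouring pairs (limma; 1351 features at an unadjusted p under 0.05). With the 15 arrays of the later collection the same counts were 28 and 28, 17 and 14, 22 and 25, 3 and 3, and 0. With D. yakuba 2 and D. santomea 2 left out and the spread by species they were 151 and 162, 169 and 147, 149 and 132, 47 and 54, and 0. In both fits of the 9 arrays without a block all counts were 0, except 1 feature higher than D. yakuba (970 and 969 features at an unadjusted p under 0.05). With the replicate number as a block over the 9 arrays all counts were 0 (1031 at an unadjusted p under 0.05).

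Array quality weights gave 213 features lower than D. yakuba, 255 higher and 203 lower than D. santomea, 89 lower than both and 3 pairs, and median centring gave 6 pairs. Normalization otherwise, the floor, the filter on dim features, the probe set choice and a trend in the error model left each count over all features within 1.5 times. With the floor of 32, however, 14 of the 79 genes named by rule and called moved by over 1.5-fold, and CG10177, CG11666, spz, Snmp2 and Clk lost the call. When each of the 9 arrays was left out in turn, higher and lower features numbered 271 to 565 and 308 to 470 against the mean of both species, 281 to 633 and 277 to 407 against D. yakuba, 277 to 679 and 265 to 526 against D. santomea, 82 to 139 and 111 to 150 against both, and pairs 2 to 11. Without D. teissieri 2, 281 were higher than D. yakuba and 82 higher than both, and without D. santomea 2, 277 were higher and 265 lower than D. santomea. Pairs were 5 without D. teissieri 3 and 7 without D. santomea 1 or D. santomea 2.

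Of the 79 genes named by rule and called, none changed sign under any setting, and 34 were called with the spread by species, 65 without D. yakuba 2 and D. santomea 2, 56 without these and D. teissieri 3, 51 with array weights, 22 with the 15 later arrays and 0 with the 9 arrays only. Only genes with no call changed sign. With median centring Obp56d had a difference of 0.024, LysD of 0.082, Vajk2 of 0.10 and ix of 0.0056. Cp18 had -0.063 with cyclic loess, and with array weights Cp18 had -0.21 and Vajk2 0.048. Without D. yakuba 2 and D. santomea 2, LysD had 0.059, Cp18 -0.023 and Vajk2 0.069, with or without the spread by species, and without D. teissieri 3 as well, Cp18 had -0.35, Vajk2 0.092 and retinin 0.033. With each array left out in turn Arr1 ranged from -0.035 to 0.32, Cp18 from -0.31 to 0.24, LysD from -0.39 to 0.28, Obp56d from -0.33 to 0.18 and retinin from -0.43 to 0.050. The cause of these changes was not tested.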

Other observations

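Further well supported genes, chosen after their values were seen, fall outside the lists above. Among those higher in D. teissieri were Ak3, an adenylate kinase (1.95 ± 0.35), Galk, the galactokinase of sugar breakdown (2.52 ± 0.45), Ppox, an enzyme of haem synthesis (1.67 ± 0.33), the COPII coat protein Sec24CD (2.74 ± 0.56), and the regulators Imp (2.22 ± 0.49), Hr78 (1.78 ± 0.42) and Eip93F (2.76 ± 0.50). Imp, which binds messenger RNA, read 9.41, 9.42 and 9.51 in D. teissieri, against 7.55, 6.92 and 8.31 in D. yakuba and 8.65, 3.96 and 7.95 in D. santomea. The D. teissieri arrays were highest and nearly equal, and D. santomea 2 was far below the rest.

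Among those lower in D. teissieri were Coq9, needed to make coenzyme Q (-2.14 ± 0.37), the uncoupling protein relative Ucp4C (-2.11 ± 0.38) and IscU, the scaffold on which iron-sulfur clusters are built (-1.21 ± 0.20). IscU read 11.52, 11.90 and 11.28 in D. teissieri, against 12.30, 12.38 and 12.21 in D. yakuba and 13.41, 13.21 and 13.14 in D. santomea, so that no species overlapped another. Its level in D. sechellia and D. mauritiana, 11.46 and 11.58, was that of D. teissieri. Jabba, a lipid droplet protein (-2.14 ± 0.39), SamDC, an enzyme of polyamine synthesis (-2.59 ± 0.60), and the receptor Eph (-2.05 ± 0.38) were also lower.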
